A study of Mus musculus with 16 samples.

Results

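The LPS receptor complex and the Toll-like receptors were followed as 10 genes: Cd14, Ly96 (which encodes MD-2), Tlr4, Tlr2, Tlr1, Tlr6, Tlr7, Tlr9, Tlr13 and Myd88. They were taken from a fixed list of names and matched on gene symbol, 10 of the 55487 genes in the expression table. Bulk RNA-Seq was done on cortex of 2-month-old male C57BL/6 wild-type mice after 2 intraperitoneal injections on consecutive days, of PBS or of LPS (2 mg/kg, from Escherichia coli O55:B5). Injections were given at ZT1, 1 hour after lights on, or at ZT13, 1 hour after lights off, and tissue was taken 24 hours after the last one. Each time of day (TOD) had 3 PBS-treated and 5 LPS-treated mice, so that the 4 groups were ZT1 PBS, ZT1 LPS, ZT13 PBS and ZT13 LPS. All mice shared 1 strain and genotype, were perfused before the cortex was taken, and the sample descriptions end in c1 for 15 mice and in c2 for 1 (ZT13 PBS mouse 1), a suffix with no stated meaning. Whole cortex holds neurons, glia, vessels and any leukocytes that stay after perfusion, and a change in a transcript there can come from more cells of a type or from more RNA per cell, which bulk samples cannot tell apart.

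Values are CPM, the reads on a gene per 1000000 reads on all genes of that mouse. The libraries held 20251840 to 29112758 estimated reads on genes, and 3 reads were worth 0.103 to 0.148 CPM, an uncertainty that covers counting error only. The 4 neuronal markers (Rbfox3, Snap25, Syt1 and Map2) summed to 3805 to 4402 CPM in every mouse. Groups follow the sample titles. A separate treatment field in the labels contradicts the title for 12 of the 16 mice, and with that field as the grouping no member was called at either TOD (limma, adjusted p under 0.05).

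LPS, the outer wall lipid of Gram-negative bacteria, is lifted from its serum carrier by CD14 and passed to MD-2, the small protein that sits on TLR4 and holds the lipid in its pocket. TLR2 pairs with TLR1 or TLR6 to read bacterial lipopeptides, whereas TLR7, TLR9 and the mouse receptor TLR13 sit in endosomes and read single-stranded RNA, DNA with unmethylated CpG, and bacterial ribosomal RNA. All of these receptors use the adaptor MyD88, and in the brain they are carried mainly by microglia and other myeloid cells.

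Upstream sequence was available for 6 of the 10 members in a table of RefSeq promoters (GRCm38.p6). Of the stretches that hold a match to a motif of a factor known for myeloid or innate immune genes, 4 are shown. The 250 bases before the start of 32851 promoters were searched on both strands for GGGNNNNNCC (NF-kB, found in 45.8% of them), GAGGAAG (PU.1, 10.6%) and GAAANNGAAA (the interferon-stimulated response element, ISRE, 2.98%), and capitals mark the matches. The Tlr2 stretch (chr3:83841768-83841858, minus strand) holds 2 NF-kB matches that overlap each other, the Tlr9 stretch (chr9:106222348-106222597, plus strand) and the Tlr13 stretch (chrX:106143025-106143203, plus strand) 1 PU.1 match each, and the Myd88 stretch (chr9:119340042-119340268, minus strand) 1 ISRE match. Windows were shortened to the bases before the annotated exon. The Tlr1 window (1 PU.1 match) and the 2 Tlr6 windows (2 ISRE matches in 1 of them, 1 NF-kB match in the other) are not printed. The Myd88 stretch lies inside the annotated span of that gene, outside its exons. A match is a description of the letters and not evidence of binding.
Tlr2: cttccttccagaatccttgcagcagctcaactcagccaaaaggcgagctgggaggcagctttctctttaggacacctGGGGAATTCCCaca
Tlr9: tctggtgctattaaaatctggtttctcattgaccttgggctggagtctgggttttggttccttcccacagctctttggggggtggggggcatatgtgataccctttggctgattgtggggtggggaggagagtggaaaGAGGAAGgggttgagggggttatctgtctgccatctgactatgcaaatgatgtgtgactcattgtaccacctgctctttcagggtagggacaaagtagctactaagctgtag
Tlr13: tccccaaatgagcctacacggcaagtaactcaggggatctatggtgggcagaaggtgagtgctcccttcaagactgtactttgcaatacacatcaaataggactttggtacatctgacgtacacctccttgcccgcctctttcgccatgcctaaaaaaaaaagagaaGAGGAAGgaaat
Myd88: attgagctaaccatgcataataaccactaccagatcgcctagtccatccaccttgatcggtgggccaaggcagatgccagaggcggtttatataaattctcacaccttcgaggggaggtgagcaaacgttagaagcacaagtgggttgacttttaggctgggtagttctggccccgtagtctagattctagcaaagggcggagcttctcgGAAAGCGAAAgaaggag

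LPS was followed by higher Cd14, Tlr4, Tlr2, Tlr1, Tlr7, Tlr9, Tlr13 and Myd88 at both TODs. Tlr6 was called higher at ZT13 only, and no difference in its response between the TODs was called. Tlr2 had the largest change of the 9 fitted members at both TODs, by 2.55 (ZT1) and 3.24 (ZT13) on the log2 scale. Ly96, the MD-2 gene, stayed under 1 CPM in all 16 mice and was not fitted with the other 9. Fits were made across 18859 genes, those that reached 1 CPM or more in 3 or more mice, and a gene was called at a limma adjusted p under 0.05. At ZT1, 8 of 9 fitted members were called higher, beside 11.1% of all genes tested called higher and 5.15% called lower. At ZT13, 9 of 9 were called higher, beside 19.2% of all genes called higher and 9.40% called lower. The 6 members Cd14, Tlr4, Tlr7, Tlr9, Tlr13 and Myd88 reach the minimum in PBS-treated mice alone. Tlr2, Tlr1 and Tlr6 pass it only through LPS-treated mice, so these 3 had to differ to be tested at all, and their calls are no independent support.

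**Figure D1:**
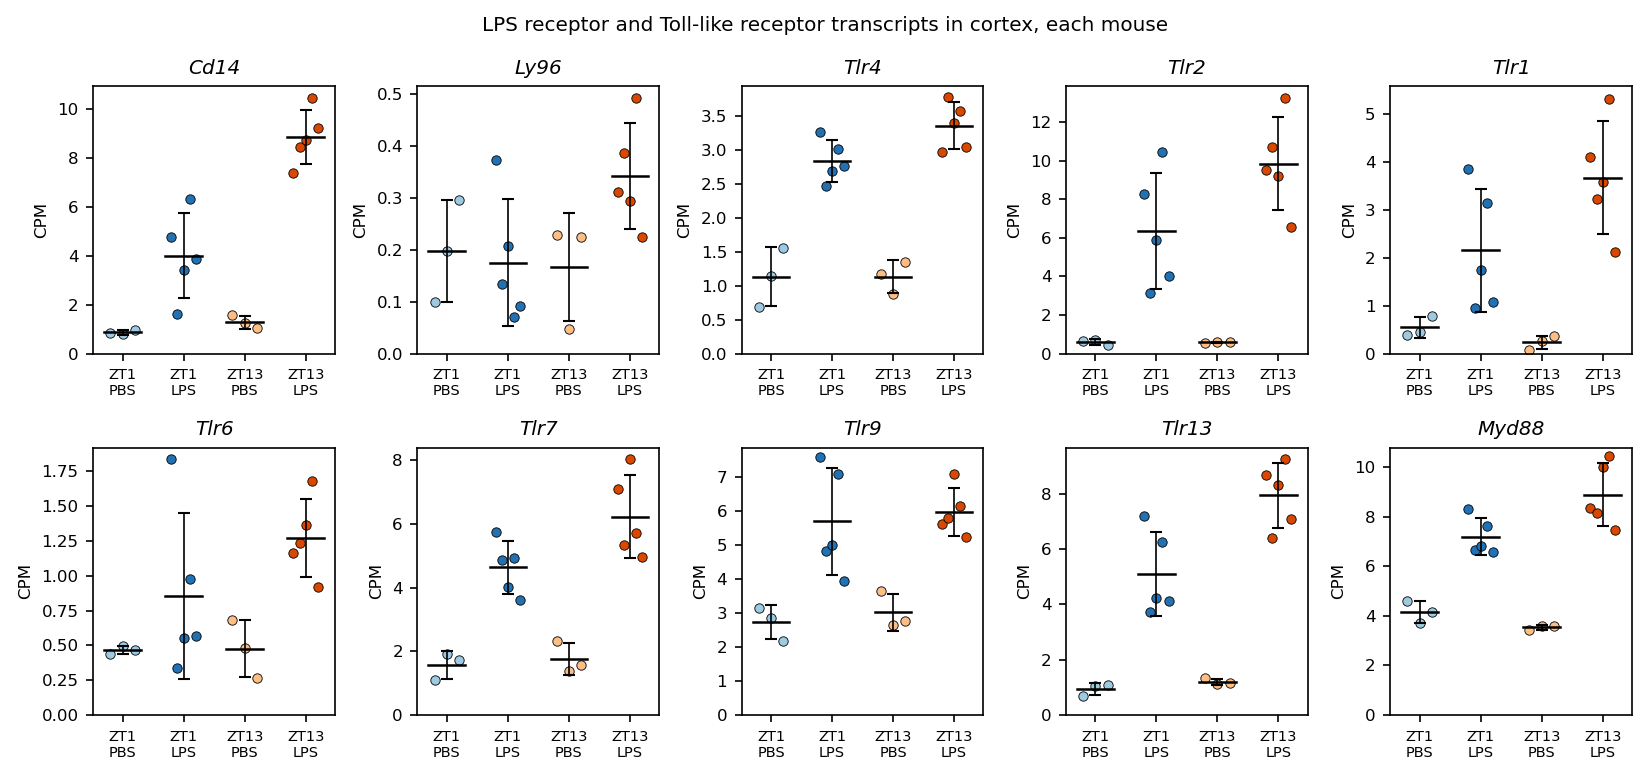
CPM (vertical axis, from 0, scaled separately for each gene) of the 10 members in each mouse by group; points are mice, the bar is the mean and the error bar the SD. The ZT1 LPS and ZT13 LPS mice lie above the PBS-treated mice of the same TOD for 8 members at ZT1 and 9 at ZT13, beside 15.9% and 20.9% of all genes tested. Tlr2, Tlr1 and Tlr6 passed the minimum for testing only through LPS-treated mice.

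Cd14 (ENSMUSG00000051439, chromosome 18, minus strand), the co-receptor that lifts LPS onto the complex, was 0.838, 0.790 and 0.968 CPM in the 3 ZT1 PBS mice and 4.76, 1.61, 3.43, 6.34 and 3.85 CPM in the 5 ZT1 LPS mice. In ZT13 PBS mice it was 1.56, 1.25 and 1.03 CPM, and in ZT13 LPS mice 7.40, 8.47, 8.72, 10.5 and 9.22 CPM. The LPS groups sat above the PBS group of the same TOD in every mouse, and the lowest ZT13 LPS mouse exceeded the highest ZT1 LPS mouse. The log2 fold change of LPS against PBS was 1.62 (SE 0.30, limma adjusted p = 0.00366) at ZT1 and 2.40 (SE 0.13, limma adjusted p = 1.28e-08) at ZT13. The ZT1 call was lost in a fit of all genes with any reads (limma adjusted p = 0.0588).

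Tlr4 (ENSMUSG00000039005, GRCm38 chr4:66827584-66930284, plus strand), the signalling receptor for LPS, was 0.690, 1.14 and 1.56 CPM in ZT1 PBS mice and 3.26, 2.46, 2.68, 3.01 and 2.76 CPM in ZT1 LPS mice. It was 1.18, 0.879 and 1.34 CPM in ZT13 PBS mice and 2.97, 3.78, 3.40, 3.56 and 3.05 CPM in ZT13 LPS mice. Neither LPS group overlapped its PBS group. Its log2 fold change was 1.07 (SE 0.18, limma adjusted p = 0.00212) at ZT1 and 1.24 (SE 0.14, limma adjusted p = 1.52e-05) at ZT13.

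Ly96 (ENSMUSG00000025779, GRCm38 chr1:16688051-16709611, plus strand) encodes MD-2, without which TLR4 does not hold LPS. It was 0.0986, 0.198 and 0.295 CPM in ZT1 PBS mice and 0.373, 0.134, 0.206, 0.0700 and 0.0906 CPM in ZT1 LPS mice. In ZT13 PBS mice it was 0.228, 0.0463 and 0.224 CPM, and in ZT13 LPS mice 0.310, 0.387, 0.294, 0.493 and 0.224 CPM. These values rest on 1 to 13 reads a mouse, the LPS and PBS groups overlapped at both TODs, and no change in Ly96 with LPS passed the test. A fit of all genes with any reads gave log2 fold changes of -0.05 (SE 0.16, limma adjusted p = 0.929) at ZT1 and 0.34 (SE 0.14, limma adjusted p = 0.190) at ZT13.

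Tlr2 (ENSMUSG00000027995, GRCm38 chr3:83836272-83841767, minus strand), the shared partner of the lipopeptide receptors, was 0.641, 0.691 and 0.421 CPM in ZT1 PBS mice and 8.26, 3.13, 5.91, 10.5 and 4.03 CPM in ZT1 LPS mice. In ZT13 PBS mice it was 0.531, 0.601 and 0.582 CPM and in ZT13 LPS mice 9.52, 10.7, 9.22, 13.2 and 6.58 CPM. The lowest LPS-treated mouse was thus above every PBS-treated mouse at both TODs. Mean Tlr2 was 10.9 times as high with LPS at ZT1 and 17.2 times at ZT13, and the log2 fold changes were 2.55 (SE 0.31, limma adjusted p = 0.000252) and 3.24 (SE 0.17, limma adjusted p = 9.24e-09). The log2 values were taken of CPM plus 0.5, which lowers the fold of such low transcripts.

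Tlr1 (ENSMUSG00000044827, GRCm38 chr5:64924679-64933563, minus strand), a partner of Tlr2, was 0.397, 0.444 and 0.793 CPM in ZT1 PBS mice and 3.85, 0.958, 1.75, 3.16 and 1.07 CPM in ZT1 LPS mice. It was 0.0778, 0.260 and 0.358 CPM in ZT13 PBS mice and 4.11, 3.24, 3.58, 5.33 and 2.12 CPM in ZT13 LPS mice. The groups did not overlap at either TOD. The log2 fold change was 1.23 (SE 0.35, limma adjusted p = 0.0333) at ZT1 and 2.48 (SE 0.23, limma adjusted p = 2.02e-06) at ZT13. The ZT1 call was lost in 6 of 8 fits that left out 1 mouse, with adjusted p up to 0.126.

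Tlr6 (ENSMUSG00000051498, GRCm38 chr5:64952031-64960097, minus strand), the other partner of Tlr2, was 0.441, 0.494 and 0.470 CPM in ZT1 PBS mice and 1.84, 0.340, 0.555, 0.976 and 0.565 CPM in ZT1 LPS mice. The second of these LPS-treated mice fell under all 3 controls and the first lay far above the rest. In ZT13 PBS mice it was 0.681, 0.481 and 0.269 CPM and in ZT13 LPS mice 1.16, 1.23, 1.37, 1.68 and 0.922 CPM, with no overlap. The log2 fold change was 0.39 (95% interval -0.25 to 1.03, limma adjusted p = 0.413) at ZT1 and 0.87 (SE 0.19, limma adjusted p = 0.00379) at ZT13. Tlr1 and Tlr6 share 454 identical 50-base windows of exon, 13.6% of those of Tlr1 and 12.3% of those of Tlr6, and their estimated reads include fractions of a read, so that both levels are uncertain.

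Tlr7 (ENSMUSG00000044583, GRCm38 chrX:167304929-167330558, minus strand), the endosomal RNA receptor, ranged from 1.08 to 1.93 CPM in ZT1 PBS mice and from 3.63 to 5.74 CPM in ZT1 LPS mice. At ZT13 it ranged from 1.39 to 2.32 CPM with PBS and from 4.97 to 8.05 CPM with LPS. Tlr9 (ENSMUSG00000045322, GRCm38 chr9:106222598-106226883, plus strand), the DNA receptor, ranged from 2.19 to 3.16 CPM in ZT1 PBS mice and from 3.94 to 7.60 CPM in ZT1 LPS mice. LPS and PBS groups of both genes stayed apart at both TODs, although the gap for Tlr9 at ZT1 was under 1 CPM. At ZT13 Tlr9 ranged from 2.64 to 3.64 CPM with PBS and from 5.24 to 7.09 CPM with LPS. Tlr7 rose by 1.31 on the log2 scale (SE 0.18, limma adjusted p = 0.000494) at ZT1 and 1.58 (SE 0.17, limma adjusted p = 9.18e-06) at ZT13. Tlr9 rose by 0.91 (SE 0.20, limma adjusted p = 0.00910) and 0.88 (SE 0.13, limma adjusted p = 0.000122) on the same log2 scale. The ZT1 call of Tlr9 was lost without ZT1 PBS mouse 3 (log2 fold change 0.79, limma adjusted p = 0.0564) and with all genes with any reads (limma adjusted p = 0.0824).

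Tlr13 (ENSMUSG00000033777, GRCm38 chrX:106143204-106160493, plus strand), which reads bacterial ribosomal RNA, was 0.690, 1.04 and 1.09 CPM in ZT1 PBS mice and 7.18, 3.72, 4.22, 6.27 and 4.12 CPM in ZT1 LPS mice. It was 1.33, 1.11 and 1.16 CPM in ZT13 PBS mice and 8.68, 6.40, 8.30, 9.25 and 7.08 CPM in ZT13 LPS mice. All LPS-treated mice were above all PBS-treated mice of the same TOD. Among the 6 members that pass the minimum on PBS-treated mice, its ZT1 log2 fold change was the largest, 1.93 (SE 0.21, limma adjusted p = 0.000107), and at ZT13 it was 2.30 (SE 0.13, limma adjusted p = 1.70e-08).

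Myd88 (ENSMUSG00000032508, GRCm38 chr9:119335934-119341411, minus strand), the adaptor, was 4.59, 3.70 and 4.17 CPM in ZT1 PBS mice and 8.30, 6.67, 6.80, 7.62 and 6.57 CPM in ZT1 LPS mice. It was 3.42, 3.61 and 3.58 CPM in ZT13 PBS mice and 8.37, 8.17, 9.998, 10.4 and 7.47 CPM in ZT13 LPS mice. The groups did not overlap at either TOD. The log2 fold change was 0.72 (SE 0.11, limma adjusted p = 0.00121) at ZT1 and 1.21 (SE 0.11, limma adjusted p = 2.62e-06) at ZT13. The exons of Myd88 share 290 bases (11.3%) with Acaa1a on the opposite strand, and reads there may belong to either gene unless counting used the strand, which is not given in the sources used here.

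Beside the fits, exact permutation tests of the difference of mean CPM were made for the 10 members in 4 pairwise comparisons, 40 tests whose p are not adjusted. For the LPS against PBS tests, 3 mice against 5, the smallest two-sided p is 0.036, and every member whose groups did not overlap had it. The non-overlapping members were 8 of 10 at ZT1, where 15.9% of all genes tested stood apart and higher, and 9 of 10 at ZT13, where 20.9% did. Ly96 overlapped at both TODs (exact permutation p = 0.82 and 0.11) and Tlr6 at ZT1 (exact permutation p = 0.36).

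**Figure D2:**
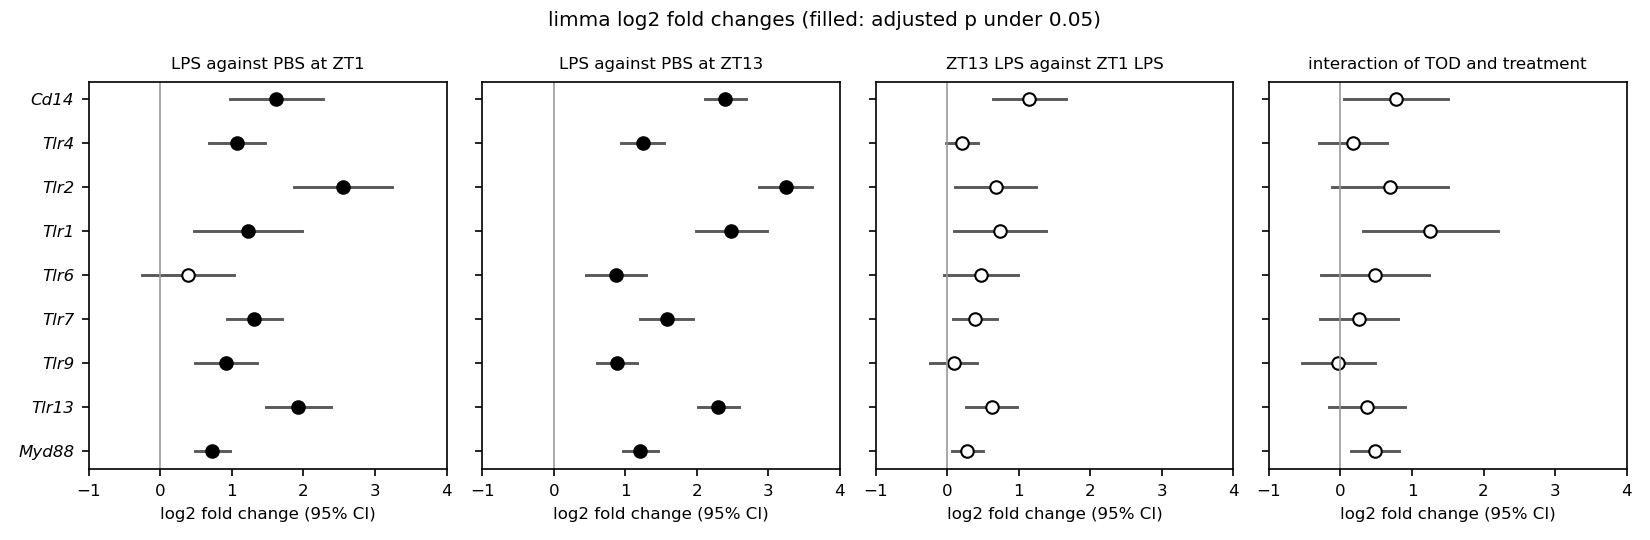
limma log2 fold changes (points) with 95% intervals (bars) of the 9 fitted members in 4 comparisons; filled points have an adjusted p under 0.05. Every point but Tlr6 is filled for LPS against PBS at ZT1, all 9 are filled at ZT13, and none is filled for ZT13 LPS against ZT1 LPS or for the interaction.

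The time of day comparison asked whether members differed between LPS-treated mice at ZT13 and at ZT1, with both PBS groups left out of that fit. All 9 fitted members had a higher estimate at ZT13, and 0 of 9 passed the limma test, beside 0.0212% of all genes tested; at an unadjusted p under 0.05 the count was 6 (Cd14, Tlr2, Tlr1, Tlr7, Tlr13 and Myd88), beside 10.6% of all genes, and Tlr2 and Tlr1 among them passed the minimum only through LPS-treated mice. Cd14 was 8.85 ± 1.12 CPM (SD, n = 5) at ZT13 and 3.999 ± 1.74 CPM (SD, n = 5) at ZT1, and it was the 1 member of 10 whose groups did not overlap, beside 1.55% of all genes tested that stood apart and higher. Its exact permutation p was 0.0079, the smallest that 5 against 5 mice allow, and its limma adjusted p was 0.0958. The log2 difference was 1.15, with a 95% interval from 0.64 to 1.66. The paper names Cd14 among the genes higher at ZT13 in this comparison, at its own adjusted P threshold of 0.05. The fit used here called fewer genes than the paper did, 4 of 18859. Leaving out ZT1 LPS mouse 1 (limma adjusted p = 0.0306) or ZT1 LPS mouse 2 (limma adjusted p = 0.0458), a single fit of all 16 mice (limma adjusted p = 0.0298) and sample quality weights (limma adjusted p = 0.0241) each brought Cd14 past the threshold. These were 2 of 10 fits that left out 1 mouse and 2 of 10 other alternatives. In the rest limma adjusted p reached 0.271 (without ZT13 LPS mouse 4) and 0.388 (all genes with any reads). Beside this, the summed microglia and macrophage markers overlapped between the LPS groups (79.3 to 174 CPM at ZT1, 151 to 199 CPM at ZT13), while the perivascular macrophage markers (10.4 to 23.0 and 24.6 to 27.2 CPM) and the endothelial markers (135 to 180 and 180.1 to 203 CPM) did not. The perivascular difference was carried by F13a1 (mean 8.42 and 14.5 CPM), while Mrc1 was 4.43 and 4.99 CPM and Lyve1 1.02 and 0.983 CPM. The summed monocyte markers were 2.90 times and the neutrophil markers 2.30 times as high at ZT13 as at ZT1 with LPS, with overlap, and Cd14 2.21 times. Chil3 carried most of the monocyte difference (mean 4.265 CPM at ZT1 and 15.8 CPM at ZT13). S100a8 (mean 5.18 and 13.2 CPM) and S100a9 (14.0 and 33.4 CPM) carried the neutrophil difference. Ngp was 1.13 and 1.38 CPM and Ly6g 0.0551 and 0.0648 CPM. Camp (0.124 and 0.0519 CPM) and Ltf (0.496 and 0.238 CPM) were lower at ZT13. Cd14 relative to the summed microglia and macrophage markers was 2.03% to 4.03% at ZT1 and 4.12% to 6.13% at ZT13, higher without overlap. The same ratio was also higher without overlap in PBS-treated mice, 2.64% to 3.03% at ZT1 and 3.34% to 5.11% at ZT13. The share of all genes that stood apart on this ratio between TODs was not computed, so neither is a result about Cd14. The part of these cell types in the Cd14 difference was not tested.

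Tlr13 was 7.94 ± 1.17 CPM (SD, n = 5) at ZT13 and 5.10 ± 1.53 CPM (SD, n = 5) at ZT1 with LPS, a log2 difference of 0.62 (limma adjusted p = 0.181, exact permutation p = 0.024). It passed without ZT1 LPS mouse 1 (limma adjusted p = 0.0255) and in no other fit. There limma adjusted p reached 0.404 (without ZT1 LPS mouse 3) and 0.481 (all genes with any reads). Tlr4, Tlr7, Myd88 and Ly96 each gave an unadjusted exact permutation p of 0.048, and Ly96 there rests on 2 to 13 reads a mouse. The log2 differences were 0.21, 0.38 and 0.28 for the 3 of these that were fitted. Tlr9 was 5.98 ± 0.70 CPM at ZT13 and 5.70 ± 1.57 CPM at ZT1 (SD, n = 5 each, exact permutation p = 0.72). The 95% interval of the Tlr9 log2 difference ran from -0.24 to 0.42. Tlr2 (log2 difference 0.68, 95% interval 0.11 to 1.25), Tlr1 (0.74, interval 0.10 to 1.39) and Tlr6 (0.47, interval -0.04 to 0.99) had wide intervals.

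The same mouse tended to be high or low for many members. Of the ZT1 LPS mice, mouse 1 had the highest value for 8 of 10 members and mouse 2 the lowest for 6. Of the ZT13 LPS mice, mouse 4 was highest for 7 and mouse 5 lowest for 7. Summed over the 10 members, the ZT1 LPS mice ranged from 28.7 to 51.2 CPM and the ZT13 LPS mice from 46.9 to 66.3 CPM, with overlap.

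In PBS-treated mice no member passed the test between TODs. With 3 mice against 3 the exact permutation test cannot go below 0.10, and limma called 0 of 9 members, beside 0.520% of all genes tested; 1 member (Tlr1) had an unadjusted p under 0.05, beside 13.5% of all genes. Tlr1 was 0.545 ± 0.216 CPM at ZT1 and 0.232 ± 0.142 CPM at ZT13 (SD, n = 3 each), a log2 difference of -0.51 (limma adjusted p = 0.344). Cd14 went the other way, 0.866 ± 0.092 CPM at ZT1 and 1.28 ± 0.26 CPM at ZT13 (log2 difference 0.37, limma adjusted p = 0.371). The groups of Cd14 and Tlr13 (higher at ZT13) and of Tlr1 and Myd88 (lower at ZT13) did not overlap, and each of the 4 had the smallest exact permutation p of 0.10. Of all genes tested, 9.52% stood apart and higher and 9.21% apart and lower in this comparison.

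The interaction of TOD and treatment, fitted on all 16 mice, asked whether the log2 response to LPS differed between ZT13 and ZT1. It uses the same mice as the comparisons above and is not independent of them. No member passed, 0 of 9 beside 0.159% of all genes tested, and 3 members had an unadjusted p under 0.05, beside 9.25% of all genes. These were Tlr1 (a log2 difference of responses of 1.26, SE 0.45, limma adjusted p = 0.362), Cd14 (0.78, SE 0.35, limma adjusted p = 0.505) and Myd88 (0.48, SE 0.16, limma adjusted p = 0.302). Tlr1 passed the minimum only through LPS-treated mice, and its ZT13 PBS values rest on 2.05 to 8 estimated reads a mouse. Tlr9 gave -0.03 (95% interval -0.54 to 0.49) and Tlr4 0.18 (95% interval -0.29 to 0.65). For Tlr6, called with LPS at ZT13 only, the limma adjusted p of the interaction was 0.754.

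Per length, the order of the members differed between groups. In CPM per kb of exon, Myd88 was highest in ZT1 PBS mice (1.61 ± 0.17, SD, n = 3), ZT13 PBS mice (1.37 ± 0.04, SD, n = 3) and ZT1 LPS mice (2.79 ± 0.29, SD, n = 5). Cd14 was highest in ZT13 LPS mice (5.11 ± 0.65, SD, n = 5), above Myd88 (3.45 ± 0.49, SD, n = 5) with no overlap between the mice. Tlr4 stood low in every group, 0.203 CPM per kb in ZT1 PBS mice and 0.603 in ZT13 LPS mice, and Ly96 was last in both LPS groups (0.171 and 0.334). Of the 9 neighbouring pairs in the order, 3 stood apart in ZT1 PBS (Myd88 over Tlr9, Tlr9 over Cd14, Tlr7 over Tlr13), 4 in ZT13 PBS (Myd88 over Tlr9, Cd14 over Tlr7, Tlr7 over Tlr13, Tlr13 over Tlr4), 3 in ZT13 LPS (Cd14 over Myd88, Tlr2 over Tlr13, Tlr4 over Tlr6) and 0 in ZT1 LPS. The other neighbours overlapped and their order is not resolved.

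**Figure D3:**
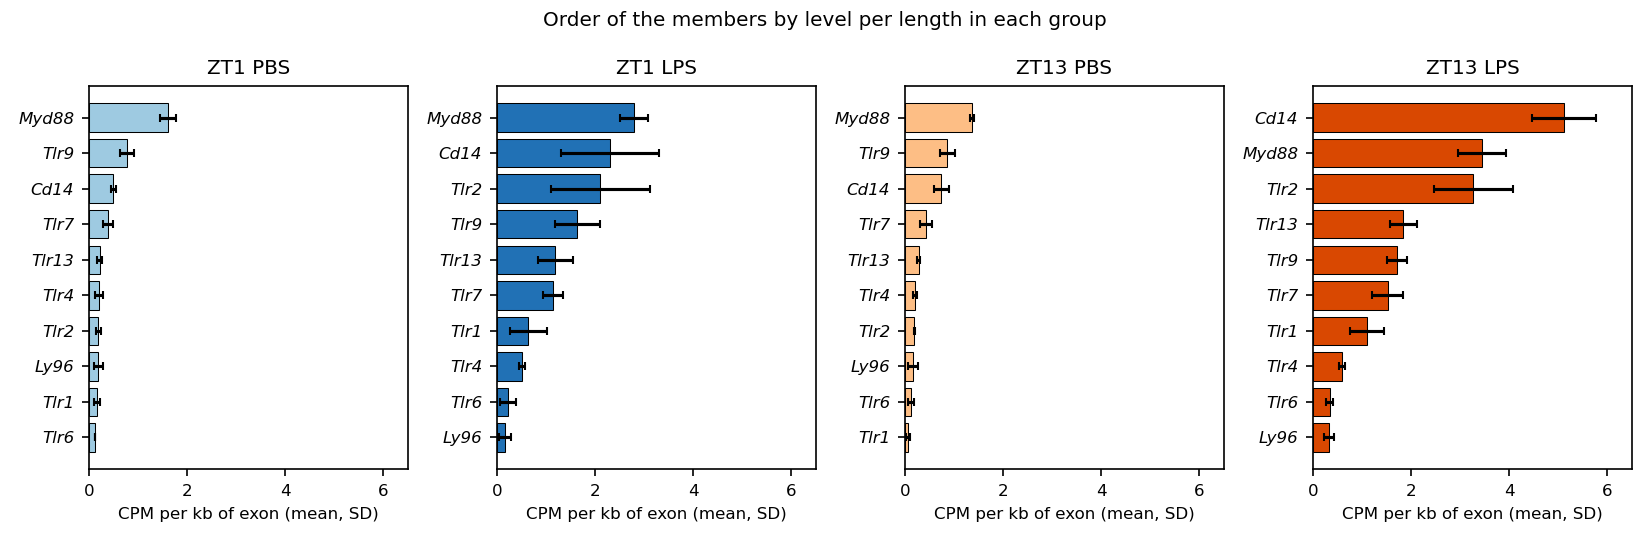
Level of each member per length (CPM per kb of exon; bars are means, error bars the SD) in the 4 groups, highest at the top. Cd14 has the highest mean only in ZT13 LPS mice, at 5.11 CPM per kb, and Myd88 has it in the other 3 groups. In ZT1 LPS mice Myd88 (2.55 to 3.22) lies within the range of Cd14 (0.930 to 3.66), and their order is not resolved.

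The genes most like each member over the 4 group means, by root mean square (RMS) difference of centred log2(CPM + 0.5), were taken as a description. Nearest to Cd14 were F630028O10Rik (RMS difference 0.10), Acp5 (0.11) and F13a1 (0.11), to Tlr4 Syngr2, Hvcn1 and Grn (0.01 to 0.02), and to Tlr2 Gm49391, H2-Q7 and Apod (0.05 to 0.06). Nearest to Tlr13 were Mmp12 (0.04), Emp1 (0.05) and Ptprc (0.05), and to Myd88 Samhd1 (0.01), Lrrk1 (0.02) and Ier3 (0.02). Nearest to Tlr7 was Gimap8, to Tlr9 Gpr182, to Tlr1 Arhgap9 and to Tlr6 Cntf. Among the members, Tlr4 and Myd88 were most alike (0.13) and Tlr2 and Tlr6 least (1.14). A distance over 4 means is a likeness of pattern in these mice and no more.

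Cell type markers changed with the members. All 6 microglia and macrophage markers (Aif1, Itgam, Cd68, Tyrobp, Fcer1g and Ptprc) were called higher with LPS at both TODs. Their summed level ran from 29.1 to 31.95 CPM in ZT1 PBS mice and 79.3 to 174 CPM in ZT1 LPS mice, and from 29.8 to 30.8 CPM and 151 to 199 CPM at ZT13. The mean rose 4.203-fold and 5.88-fold. For the 7 homeostatic microglia markers the mean rose 1.43-fold and 1.37-fold, with 5 called higher and P2ry12 and Siglech called lower at each TOD. Neutrophil markers (6 genes, 3 of them fitted) summed to 0.592 to 0.986 CPM in ZT1 PBS mice and 7.70 to 39.0 CPM in ZT1 LPS mice, and to 0.370 to 0.896 CPM and 24.2 to 67.8 CPM at ZT13, with Ly6g at 0 in all 6 PBS-treated mice. S100a8 (mean 13.2 CPM) and S100a9 (33.4 CPM) made up most of the sum in ZT13 LPS mice, where Camp was 0.0519 CPM, Ltf 0.238 CPM and Ly6g 0.0648 CPM, and Ngp was not called at ZT1 (limma adjusted p = 0.0632). The 4 monocyte markers rose from 0.550 to 6.85 CPM on average at ZT1 and from 0.258 to 19.9 CPM at ZT13. Chil3 made up most of the sum with LPS (mean 4.265 CPM at ZT1 and 15.8 CPM at ZT13). In ZT13 LPS mice Ly6c2, Ccr2 and Plac8 were 1.42, 1.75 and 0.938 CPM. These 4 markers and the 3 fitted neutrophil markers passed the minimum only through LPS-treated mice. The 4 perivascular macrophage markers had a mean of 8.81 and 17.9 CPM at ZT1 and 10.01 and 25.5 CPM at ZT13 in PBS-treated and LPS-treated mice. Between LPS-treated and PBS-treated mice the summed endothelial markers differed 1.404-fold at ZT1 and 2.50-fold at ZT13 and the astrocyte markers 2.43-fold and 2.98-fold. Gfap carried most of the astrocyte difference, with means of 115.6 (PBS) and 731 CPM (LPS) at ZT1 and 117.6 and 1013 CPM at ZT13. Aqp4, Aldh1l1 and Slc1a3 rose by smaller factors. Of the endothelial markers, Flt1 was called lower at ZT1, and the endothelial mean with PBS was itself lower at ZT13 (77.7 CPM) than at ZT1 (116 CPM), with Flt1 and Cldn5 called lower. The ratio was 0.958 and 0.906 for the neuronal and 0.881 and 0.809 for the oligodendrocyte markers. None of the 6 lymphocyte markers reached the minimum, and Ms4a1 and Nkg7 were at 0 in all PBS-treated mice. The part of these cells in the members' levels was not tested.

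Relative to the summed 6 microglia and macrophage markers, Tlr2 was 2.48 times as high in LPS-treated as in PBS-treated mice at ZT1 and 2.91 times at ZT13, and Cd14 was 1.07 and 1.19 times, with overlap at both. Of the 10 members, 1 was higher and 4 lower without overlap at ZT1 (Tlr2, and Ly96, Tlr6, Tlr9 and Myd88), and 2 higher and 5 lower at ZT13 (Tlr2 and Tlr1, and Tlr4, Tlr6, Tlr7, Tlr9 and Myd88). The marker sum itself rose 4.203-fold at ZT1 and 5.88-fold at ZT13, so any gene that rose less has a lower ratio. The share of all genes that stood apart on this ratio was not computed, so these counts are no result about the members. At ZT13 the ratio was 0.508 for Tlr4, 0.450 for Tlr6 and 0.603 for Tlr7. Myd88 was 0.436 and 0.427 times and Tlr9 0.505 and 0.338 times. Relative to the 7 homeostatic markers, Tlr2, Cd14, Myd88 and Tlr9 were higher than 1, from 1.24 for Myd88 at ZT1 to 12.7 for Tlr2 at ZT13, with overlap for Myd88 and Tlr9 at ZT1. On this list Tlr4, Tlr6 and Tlr7 were 2.18, 2.00 and 2.64 times as high at ZT13, with overlap for Tlr6. The direction of Tlr4, Tlr6, Tlr7, Tlr9 and Myd88 thus turned with the marker list at both TODs. That of Tlr1 turned at ZT1 and that of Ly96 at ZT13. These ratios, chosen after the data were seen, were not tested.

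Of the 65 other genes of the pathway, in 8 lists by role, 54 were fitted. At ZT1 limma called 30 higher and 1 lower (Traf3), and at ZT13 35 higher and 2 lower (Traf3 and Sarm1). These counts, and those of the single lists, stand beside the 11.1% higher and 5.15% lower of all genes at ZT1 and the 19.2% and 9.40% at ZT13. Ticam2, Irak3, Sigirr and the fitted target genes other than Ptgs2 are counted here and passed the minimum only through LPS-treated mice. They had to be higher with LPS to be fitted, so totals that hold them are no independent support. None of the 54 was called in ZT13 LPS against ZT1 LPS, in the PBS comparison or in the interaction. Of all genes tested 0.0212%, 0.520% and 0.159% were called there, so the lack of calls is no result about the pathway. For LPS handling and the RP105 complex, 3 of 3 fitted genes were higher at both TODs, led at ZT13 by Lbp (log2 fold change 1.52), the serum carrier of LPS, and Ly86 (1.10), the partner of RP105. Of the other Toll-like receptors only Tlr3 reached the minimum (log2 fold change 0.23 at ZT1, limma adjusted p = 0.323, and 0.46 at ZT13, limma adjusted p = 0.00712). Tlr8 was at 0 to 0.148 CPM in the 6 PBS-treated mice and 0.309 to 1.38 CPM in the 10 LPS-treated mice.

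Among receptor folding and trafficking genes 3 of 8 rose at ZT1 and 4 of 8 at ZT13, led by Unc93b1 (log2 fold change 1.34), the escort of endosomal receptors, and Slc15a3 (1.26). Of the 5 adaptors 3 rose at ZT1 and 4 rose with 1 lower at ZT13, led by Pik3ap1 (2.67) and Ticam2 (1.38), while Sarm1, an adaptor known as a negative regulator and axon degeneration enzyme, fell by 0.20. Ticam2, at most 0.481 CPM with PBS, passed the minimum only through LPS-treated mice. Of the 16 kinases and ubiquitin ligases 6 were higher and 1 lower at ZT1, and 5 higher and 1 lower at ZT13, led by Ikbke (2.80) and Irak4 (1.09). Of the 5 transcription factors 3 and then 5 were higher, led by Irf7 (3.42) and Irf5 (1.01).

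Of the 10 fitted inhibitors, 7 were higher at each TOD, led at ZT13 by Irak3 (log2 fold change 2.63), a kinase-dead brake on MyD88 signalling, and Trim30a (2.16). Irak3 and Sigirr, at most 0.838 and 0.758 CPM with PBS, passed the minimum only through LPS-treated mice. Their calls are no independent support, and the inhibitor count and medians include them. Of the 6 fitted target genes 5 were higher at ZT1 and 6 at ZT13, led by Ccl5 (5.59) and Cxcl10 (2.81). All target genes but Ptgs2 stayed under 1 CPM with PBS, at most 0.345 CPM (Il1b), and passed the minimum only through LPS-treated mice. They had to be higher with LPS to be fitted, so the target counts and medians are no independent support. The median log2 fold change at ZT1 and ZT13 was 0.62 and 1.10 for the inhibitors, 1.73 and 2.39 for the targets, and 0.12 and 0.11 for the kinases and ubiquitin ligases, beside 0.04 and 0.05 for all genes tested.

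**Figure D4:**
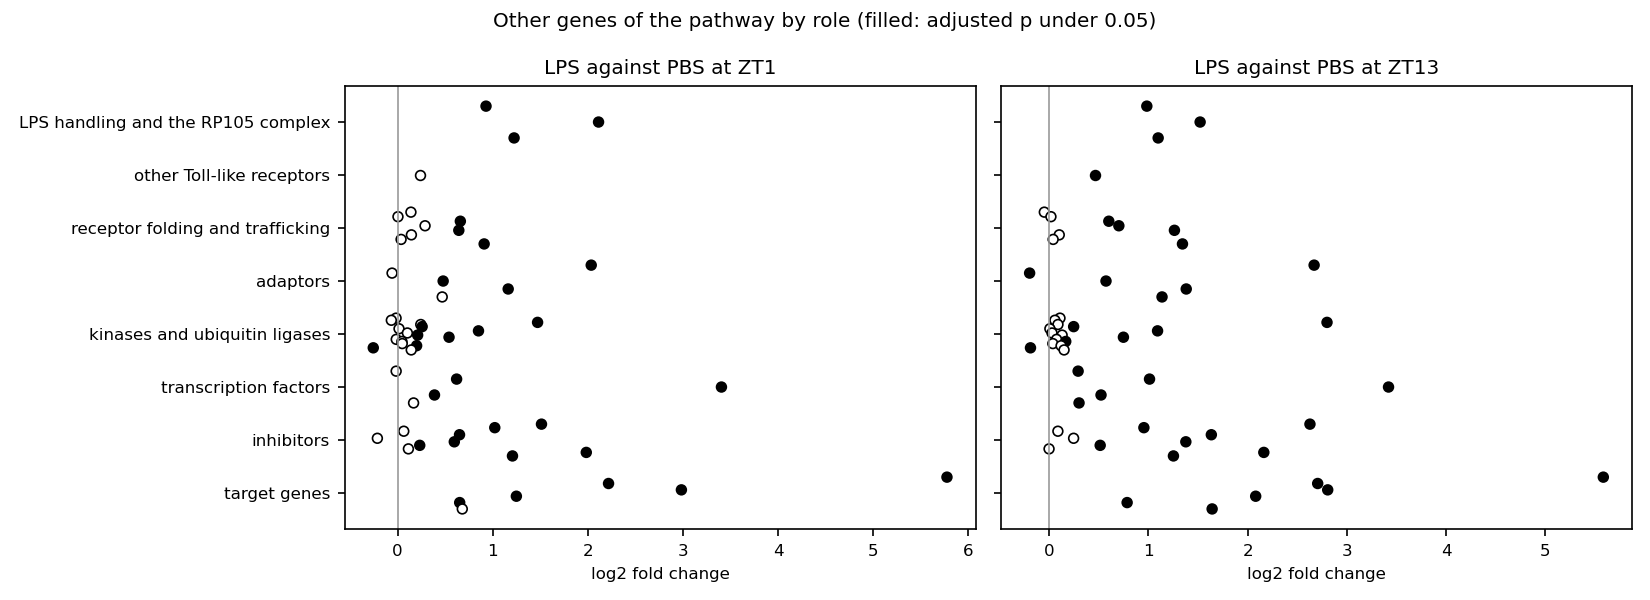
log2 fold change of LPS against PBS (horizontal axis) at ZT1 (left) and ZT13 (right) for the 54 fitted pathway genes, in rows by role; filled points have an adjusted p under 0.05. Most kinase and ubiquitin ligase genes sit near 0, while the target genes reach 5.78 at ZT1 and 5.59 at ZT13. Of the target genes only Ptgs2 passed the minimum on PBS-treated mice.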

How the data were processed

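Bulk RNA-Seq of mouse cortex from 16 mice was analysed. The authors deposited 1 table of CPM, scaled to 1000000 per sample, with 55774 lines for 55487 genes (287 repeated lines were identical and removed), and 0 sample columns were unmapped. The submitters' processing notes name bcl2fastq, DRAGEN (4.0.3-8) and GRCm38. The counting step and its strand setting are not given in the sources used here. Among values of up to 20 reads, 80.5% to 82.0% were whole multiples of the CPM of 1 read (tolerance 0.001 reads) and all were hundredths, so that reads are estimated and no count test was made.

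Titles give the groups (AM is ZT1 and PM is ZT13, as the methods state), and the treatment field contradicts them for 12 mice. Genes that reached 1 CPM or more in 3 or more mice were tested with limma 3.58.1 (R 4.3.3, intensity trend) on log2(CPM + 0.5), with Benjamini-Hochberg adjustment over all 18859 genes and a threshold of 0.05. The LPS and PBS comparisons were fitted on their 2 groups, the interaction on all 16 mice. Fits were tested on simulated data. Exact permutation tests used scipy 1.17.1 on numpy 2.4.6. Tables were handled in pandas 2.3.3 (Python 3.11.15), and plots drawn in matplotlib 3.10.9. Replicate numbers did not pair the mice (residual correlation of same-numbered samples -0.20 to 0.33). The labels do not say more than that samples are separate, so p-values measure the spread between these samples.

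The members and lists were chosen with earlier results of these data known. Named genes were the 10 members, for each of 8 lists the 2 genes with the largest log2 fold change at ZT13 among those called, any list gene called in the LPS comparison of TOD or in the interaction, and the 3 most alike genes of a member. Alternatives changed the pseudocount, filter, scaling, samples in the fit, weights, prior variance, pairing and mice. The qPCR, imaging and permeability data of the study were not analysed here.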

Additional observations from a re-analysis of the deposited data

How the results depend on the processing

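The counts of members called for LPS against PBS were 8 at ZT1 and 9 at ZT13. With all genes with any reads in the fit the ZT1 count was 5, since Cd14, Tlr1 and Tlr9 lost their call, and the cause was not tested. With the treatment field as the grouping both counts were 0. Leaving out 1 mouse gave 6 to 8 at ZT1 and 9 to 9 at ZT13. For ZT13 LPS against ZT1 LPS the count was 0, but 1 (Cd14) in a single fit of all 16 mice and 1 (Cd14) with sample quality weights. It was 0 to 2 leaving out 1 mouse, namely 2 (Cd14 and Tlr13) without ZT1 LPS mouse 1 and 1 (Cd14) without ZT1 LPS mouse 2. In the PBS comparison and the interaction it was 0 in every fit run, also leaving out 1 mouse (0 to 0). With the replicate block, the counts were 8, 9, 0, 0 and 0 for the 5 comparisons, and the numbers do not pair the mice.

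Tlr1 at ZT1 lost its call with quantile normalization and with no intensity trend. In the PBS comparison, sample quality weights turned the sign for Tlr4 (-0.0267), Tlr2 (0.0056) and Tlr6 (0.0147), and quantile normalization for Tlr6 (0.00055), all near 0. Leaving out 1 mouse turned the sign in 18 fits, none of them called: in the PBS comparison for Tlr4 (-0.178 to 0.217), Tlr2 (-0.122 to 0.0635), Tlr6 (-0.157 to 0.153), Tlr7 (-0.0638 to 0.243) and Tlr9 (-0.00597 to 0.2155), in ZT13 LPS against ZT1 LPS for Tlr9 (-0.017 to 0.1997), and in the interaction for Tlr4 (-0.00949 to 0.385) and Tlr9 (-0.139 to 0.0999). Median-of-ratios scaling lowered the share of calls that were higher from 68.2% to 54.4% at ZT1 and from 67.2% to 50.1% at ZT13, and quantile normalization to 51.15% and 44.99%, while the counts of members were 8 and 9 with the first and 7 and 9 with the other. A minimum of 5 CPM left 6 members to fit, and since no member reached 5 CPM in a PBS-treated mouse, all 6 passed through LPS-treated mice alone and their calls in that fit (6 at both TODs) say nothing about stability. Low transcripts (Ly96, and Tlr1 and Tlr6 with PBS) rest on few reads, which limits their precision.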
